A study of Mus musculus with 4 samples.

Results

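The sites described here are the POU2F3 binding sites of intermediate width in mouse intestinal tuft cells, those at least 400 bp and under 600 bp wide on chromosomes 1 to 19, X and Y. They were chosen by width alone, as the end minus the start given for each site in the authors' list. The rule gave 585 of the 2823 nuclear sites, or 20.7% (exact 95% Clopper-Pearson interval 19.2 to 22.3), out of 2828 sites in all. POU2F3 was profiled by ChIPmentation, a chromatin immunoprecipitation in which Tn5 transposase adds the sequencing adaptors on the beads. Per the labels, epithelial cells were released from the proximal 5 cm of small intestine in male C57BL/6J mice, with no age or treatment named, and tuft cells were sorted on CD45, EpCAM and Siglec F. The series holds 2 POU2F3 ChIP samples, made from 2 pools of cells and 3 mice, 1 IgG control and 1 input sample, and each immunoprecipitation used about 10000 cells. The list gives 1 row per site for the whole series, so no site has a value per sample, and neither replicate error nor depth is known. Signal of IgG or input at the sites was not analysed here.

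POU2F3 is a transcription factor of the POU family, whose members bind DNA through a POU-specific domain joined to a POU homeodomain. Tuft cells are rare chemosensory cells of the gut epithelium that answer to luminal signals, and mice without POU2F3 lack them. A binding site in such a list is an interval in which sequenced fragments pile up, and its width depends on the fragments, on how many binding positions lie close together and on how the intervals were called. The positions below are 1-based in mm9, the build in the submitters' processing notes. Genes and sequences at the sites are not given, because they would need mm9 sequence and gene models, which were not used here.

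Sites of intermediate width formed a plateau in the width distribution, separate from the main peak of narrow sites. The number of sites per 25 bp of width fell from 327 in the step below 200 bp to 50 in the step below 400 bp and 51 in the step above it. It then rose to 80 in the step from 425 bp and stayed between 73 and 80 up to the upper bound. Beyond that bound it was 75 in the step from 600 bp, 59 in the next and 47 in the step from 650 bp. The lower bound of 400 bp therefore lies in a trough between narrow and broad sites, while the upper bound cuts through the plateau. Among the 585 sites the median width was 504 bp and the quartiles were 455 and 550 bp, and 51.1% were wider than 500 bp. They covered 294.0 kb, which is 27.9% of the length of all nuclear sites.

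**Figure D1:**
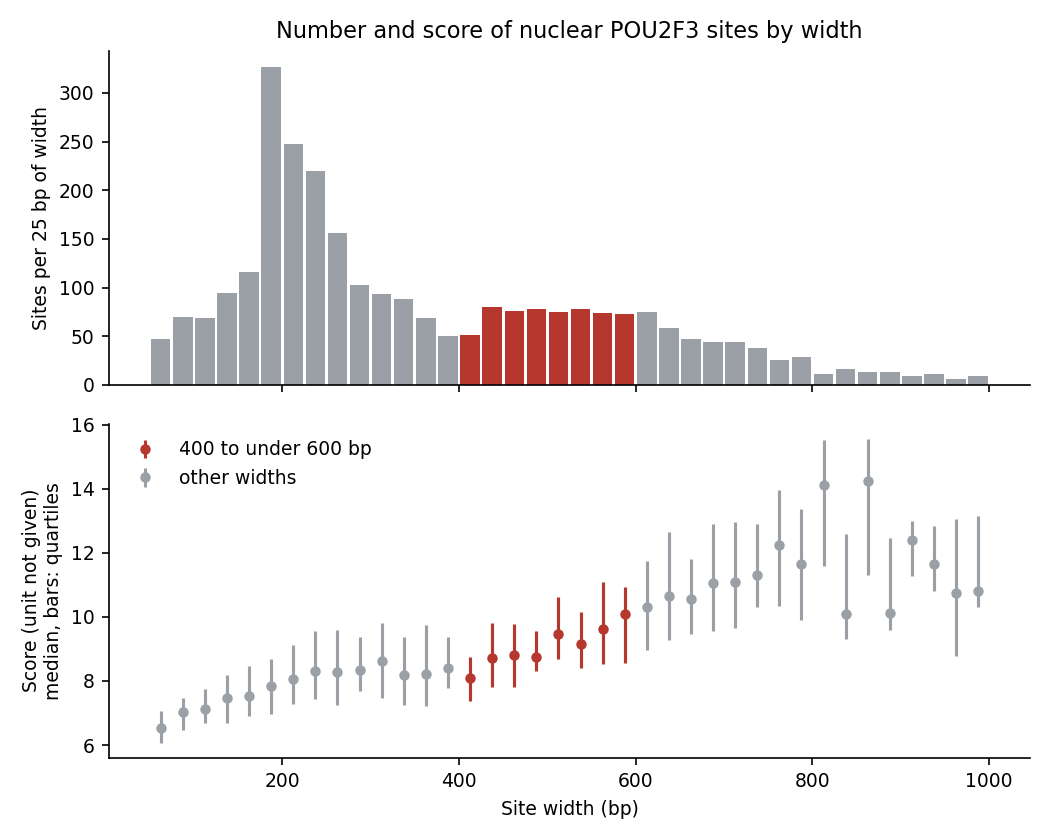
Number of nuclear sites per 25 bp of width (upper panel) and the score, whose unit is not given, as median with quartile bars (lower panel), against width in bp up to 1000 bp, with sites at least 400 bp and under 600 bp wide in red. The red bars are level at 73 to 80 sites except the first, with 51, and the median score rises from 8.08 to 10.1 across them.

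The score in the fifth column of the authors' list is the authors' value, its unit is not given, and it is used here only to rank and describe sites within the list. Width and score come from the same calls, so the scores are a description and were not tested. The 585 sites had a median score of 9.02 (exact 95% interval of the median 8.89 to 9.15), quartiles of 8.14 and 10.2, and extremes of 5.07 and 17.3. The median was 8.36 for the 300 sites between 300 and 400 bp, 11.1 for the 488 sites of 600 bp or more, and 8.34 for all 2238 other nuclear sites. Intermediate sites thus lay between their neighbours in width, and most of them held middling scores, with 374 of 585 (63.9%) from 7 to 10. That band was not particular to the class, since the quartiles of the other nuclear sites, 7.30 and 9.95, also fell in it. The share of intermediate sites in the top 25% of nuclear scores was 29.1% (25.4 to 32.9). It was 68.4% (64.1 to 72.5) for sites of 600 bp or more and 18.3% (14.1 to 23.2) for those between 300 and 400 bp. In the bottom 25% intermediate sites had 12.3% (9.76 to 15.2), against 2.66% (1.43 to 4.51) and 25.7% (20.8 to 31.0).

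Few of the 100 highest nuclear scores belonged to the class, which made up 20.7% of nuclear sites. Intermediate sites held 4 of the 50 highest, or 8% (2.22 to 19.2), and 11 of the 100 highest, or 11% (5.62 to 18.8). They held 0 of the 10 highest, with an interval of 0 to 30.8% that includes 20.7%. Of the 500 highest they held 110, or 22% (18.4 to 25.9), which is near their share of all nuclear sites. Scores below 6 were held by 5 of the 585 sites, or 0.85% (0.28 to 1.98), and by 4.24% (3.45 to 5.16) of the other nuclear sites. Scores of 14 or more were held by 9, or 1.54% (0.71 to 2.90), and by 3.57% (2.84 to 4.43) of the others, with intervals that overlap. Within the range, the median score rose from 8.40 for the 131 sites below 450 bp to 8.76 for the 154 from 450 to below 500 bp. It was 9.25 for the 153 from 500 to below 550 bp and 9.85 for the 147 above those. Spearman's rho between width and score over the 585 sites was 0.29, a description of sites that share the same calls and libraries. Over the 1750 nuclear sites below 400 bp rho was 0.32, and over those of 600 bp or more it was 0.24. On single autosomes rho was above 0 for the intermediate sites on 18 of 19, from -0.04 on chromosome 16 (16 sites) to 0.45 on chromosome 10 (31 sites).

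At the bounds, single scores were as follows. Just inside the lower bound, the 2 sites of 400 bp scored 8.08 (chr1:6441470-6441869) and 8.70 (chr2:58348882-58349281), and the next, of 401 bp, scored 6.82. Just outside it, the widest site below 400 bp scored 9.99 (chr9:53112914-53113312), and the 4 sites that were 1 bp narrower scored 6.89 to 8.44. The 4 widest sites, 1 bp under the upper bound, scored from 9.17 to 11.2, and the 5 sites of 600 bp scored from 8.34 to 11.1. The ranges just inside and just outside overlap at both bounds.

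The 10 highest scores belonged to sites of 461 to 597 bp on 7 chromosomes. Of the 10, 3 lay on chromosome 11, which held 7.35% of the class. The highest was 17.3, at chr11:101507146-101507606, a site of 461 bp that ranked 16 among all nuclear sites. The second, with 16.3, was a site of 597 bp at chr11:87284349-87284945. The third scored 15.9 at chr8:70570524-70571108 and the fourth 15.4 at chr9:104000421-104001016. The next were chr16:15665523-15666067 with 14.6, chr11:87261728-87262258 with 14.4 and chr7:109387234-109387804 with 14.4. The last 3 of the 10 were chr5:29691353-29691879 with 14.2, chr16:62793620-62794096 with 14.1 and chr18:86272602-86273167 with 13.9. In total 8 of these 10 were wider than 500 bp, as were 51.1% of the class, and 6 had another listed site within 10 kb.

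The 5 lowest scores of the class lay on 5 chromosomes. They were 5.07 at chr19:38031326-38031753, 5.25 at chr14:99617640-99618112 and 5.70 at chr11:70360960-70361432. The other two were 5.87 at chr6:146678088-146678682 and 5.93 at chr3:129539806-129540210. Their nearest listed sites lay 41.8 to 487 kb away, and 4 of the 5 gaps were below the median of the class, 101 kb. Over larger groups the counts were close. A neighbour within 10 kb was present for 13 of the 50 highest-scoring intermediate sites and for 10 of the 50 lowest-scoring ones, and within 1 kb for 4 of each. Over the whole class these shares were 19.5% within 10 kb and 6.84% within 1 kb.

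Intermediate sites were found on every autosome and were scarce on X, where sites were narrow as a whole. On the 19 autosomes they made up 581 of 2737 sites, or 21.2% (19.7 to 22.8). The autosomal shares ran from 15.4% on chromosome 13 (27 of 175) to 31.7% on chromosome 15 (32 of 101), and for 18 of the 19 autosomes the exact 95% interval held the autosomal share. The exception was chromosome 15, with an interval of 22.8 to 41.7, against 20.3% (18.8 to 21.9) for the nuclear sites off that chromosome. Its sites were broad as a whole, with a median width of 412 bp, which was the highest of any chromosome, followed by that of chromosome 12. The intervals take sites as independent, cover counting only and are not adjusted for the number of chromosomes, and no difference between chromosomes was tested.

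By number, chromosome 1 held the most intermediate sites, 53, followed by chromosome 11 with 43 and chromosomes 2 and 4 with 41 each. Per Mb between its first and last listed site, chromosome 11 had the highest value, 0.37, then chromosome 15 with 0.33. The lowest autosomal values were 0.16 on chromosome 7 and 0.17 on chromosome 3, and the 19 autosomes together had 0.25. Chromosome 13 had 0.24 intermediate sites per Mb but 1.29 other sites per Mb, the highest density of other sites of any autosome. Median scores of the intermediate sites ran from 8.42 on chromosome 14 to 9.79 on chromosome 19, which held 12 of them.

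On X, 4 of 75 sites were of intermediate width, or 5.33% (1.47 to 13.1), an interval below that of the autosomes. The 75 sites had a median width of 207 bp, the lowest of any chromosome, so the low share was not particular to this class. The 4 intermediate sites were 479, 434, 405 and 410 bp wide, so 3 of them lay in the lower part of the range. The first, at chrX:45529590-45530068, scored 11.2 and had its nearest site 4934675 bp away. A pair lay in the crowded part of X, at chrX:121900602-121901035 with a score of 8.08 and at chrX:121954124-121954528 with 8.86. The fourth, at chrX:130298139-130298548, scored 6.37. Intermediate sites made up 4.35% (0.53 to 14.8) of the 46 X sites in windows of 1 Mb with 10 or more sites and 6.90% (0.85 to 22.8) of the 29 others. The second interval holds the 21.4% of autosomes outside such windows, so these 29 sites do not show a low share by themselves. On Y, 0 of 11 sites were of this width, with an exact 95% interval of 0 to 28.5%. That interval holds the autosomal share of 21.2%, so no difference from the autosomes could be seen there.

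**Figure D2:**
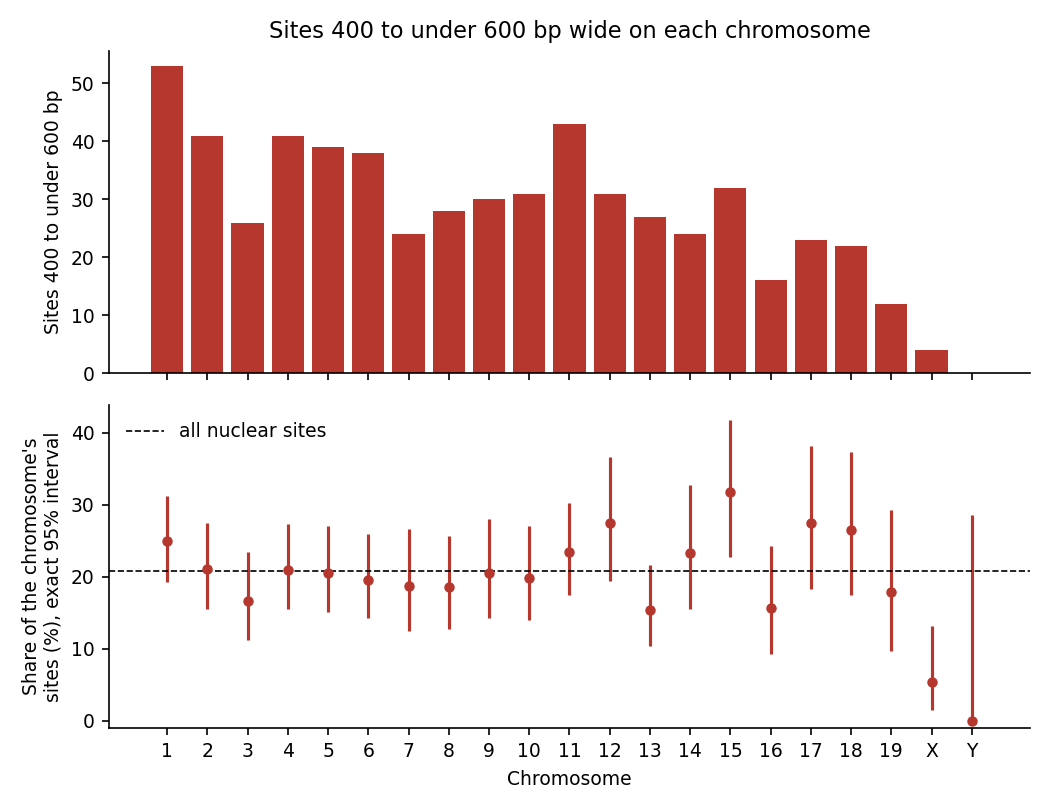
Number of intermediate-width sites on each chromosome (upper panel) and their share of that chromosome's listed sites in percent with exact 95% intervals (lower panel, dashed line at 20.7% for all nuclear sites). The share is highest on chromosome 15, at 31.7%, and on X it is 5.33%.

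Intermediate sites were seldom close to another site. Gaps are given edge to edge. Only 40 of 585, or 6.84% (4.93 to 9.19), had another listed site within 1 kb, against 571 of the 2238 other nuclear sites, or 25.5% (23.7 to 27.4). Within 200 bp the shares were 3.93% (2.51 to 5.84) and 20.8% (19.2 to 22.6). Sites of 600 bp or more were alike in this, with 9.22% (6.81 to 12.1) within 1 kb, whereas those between 300 and 400 bp had 21.7% (17.1 to 26.8) and narrower ones 31.8% (29.4 to 34.3). The classes below 400 bp thus had higher shares than those of 400 bp or more. Shares in finer steps of width are not given here, so the width at which they fall is not located. Counting from centre to centre gave 4.96% for intermediate and 24.0% for other sites. Widths and gaps come from the same calls and are not independent measures, and the difference was not tested.

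Between 1 and 10 kb the shares of intermediate and other sites were close. The nearest site lay at 1 to 10 kb for 74 intermediate sites, or 12.6% (10.1 to 15.6), and for 11.8% (10.5 to 13.2) of the other sites. Among sites with none within 1 kb, another lay within 10 kb for 13.6% (10.8 to 16.7) of the intermediate ones and 15.8% (14.1 to 17.7) of the others. For sites of 600 bp or more that share was 19.2% (15.6 to 23.2). Counting every gap of up to 10 kb, the share was 19.5% (16.4 to 22.9) for intermediate sites and 37.3% (35.3 to 39.4) for other sites. It was 26.6% (22.8 to 30.8) for those of 600 bp or more. Over all distances, the median gap was 101 kb (83.2 to 126) for intermediate sites, 41.2 kb (32.4 to 51.2) for other sites and 79.4 kb (59.6 to 102) for those of 600 bp or more. The nearest site lay at 10 to 100 kb for 30.3% (26.6 to 34.2) of the intermediate sites and for 23.8% (22.1 to 25.6) of the others. No site within 1000000 bp was listed for 62 intermediate sites, or 10.6% (8.22 to 13.4), and for 7.69% (6.62 to 8.87) of the others.

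**Figure D3:**
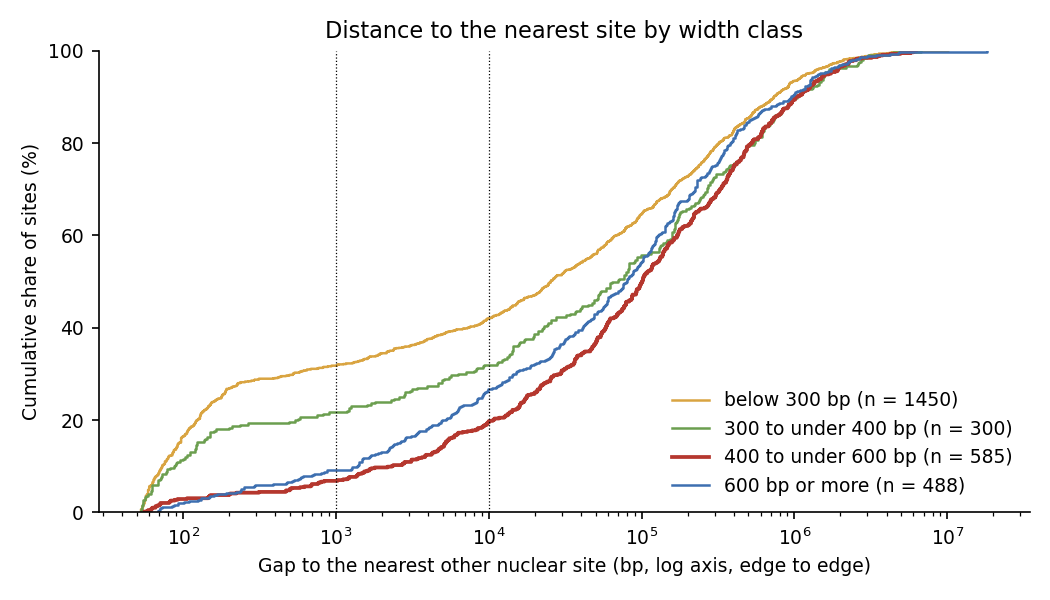
Cumulative share of sites in percent by the gap in bp to the nearest other nuclear site (log axis), for 4 width classes, with dotted lines at 1 kb and 10 kb. At 1 kb the curve of the intermediate sites stands at 6.84% and that of sites below 300 bp at 31.8%, and the curves draw together towards 1000000 bp.

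The most isolated intermediate site was chr14:8941095-8941650, with a score of 8.73 and the nearest site 6239069 bp away. The closest neighbours lay at 56 bp from chr19:24490425-24490859, a site of 435 bp that scored 13.0 beside one of 318 bp that scored 7.63. The next lay at 58 bp from chr3:38449535-38450097, which scored 7.96 beside a site of 142 bp with nearly the same score. Another lay at 59 bp from chr2:158594450-158594868, which scored 9.48 beside a site of 97 bp with 5.85. No listed nuclear site had a gap below 53 bp.

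Intermediate sites formed no chains of 3 or more with gaps of up to 10 kb. Of the class, 14 sites, or 2.39% (1.31 to 3.98), lay within 10 kb of another site of the class, and they formed 7 pairs. Among the 2238 other sites, 33.7% (31.7 to 35.7) lay within 10 kb of another of those, but the class holds fewer sites and is sparser by construction. The closest pair lay on chromosome 6, at chr6:37097401-37097836 with a score of 9.72 and chr6:37098531-37099063 with 7.75, with a gap of 694 bp. On chromosome 13, chr13:111266486-111266976 and chr13:111267728-111268291 scored 7.92 and 11.0 and had a gap of 751 bp, in which a site of 183 bp was also listed. The highest-scoring intermediate site of all was in a pair, 3823 bp from chr11:101502855-101503322, which scored 11.6. The other 4 pairs, on chromosomes 16, 7, 17 and 15, had gaps of 5101, 5212, 5949 and 8499 bp. The median gap from an intermediate site to the nearest other of its class was 995 kb (770 to 1224).

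Windows of 1 Mb held at most 4 intermediate sites, and 372 of the 466 windows with any held 1. Those with 4 lay on chromosomes 1, 6, 11, 13, 14 and 17, starting at 140000001, 37000001, 87000001, 111000001, 103000001 and 29000001. In these 6 windows the intermediate sites shared the window with 2 to 8 sites of other widths. The windows of 1 Mb with 10 or more sites, 8 in number, held 14 intermediate sites among 121, or 11.6% (6.47 to 18.7). The 6 of them on autosomes held 12 among 75, or 16.0% (8.55 to 26.3), against 21.4% (19.8 to 23.0) on autosomes outside such windows, which lies within that interval. On chromosome 13 the window from 111000001 held 4 of 12, while on chromosome 10 the window from 43000001 held 1 of 16.

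In 1 stretch of chromosome 11, intermediate and broad sites alternated over the last 4 sites. The windows with 4 intermediate sites on chromosomes 1, 6, 14 and 17 held no site of 600 bp or more, so this order was not general. Between positions 87236029 and 87284945, over 48.9 kb, 7 sites were listed, 3 of them of intermediate width. The first was chr11:87236029-87236506, which scored 8.30, followed by sites of 257 and 339 bp that scored 6.94 and 9.12 and had a gap of 91 bp. Then came a site of 740 bp with a score of 15.1, the intermediate site at 87261728 with 14.4, a site of 704 bp with 13.0 and the intermediate site at 87284349 with 16.3. The last 4 sites on chromosome 11, all above 500 bp, thus all scored 13 or more. Both stretches were chosen after their values were seen.

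At 1 to 10 kb, the nearest site of an intermediate site was often a broad one. More of these nearest sites were below 300 bp, 31 of 74 or 41.9% (30.5 to 53.9). Of those 74 neighbours, 28 were 600 bp or wider, or 37.8% (26.8 to 49.9), while such sites made up 17.3% (15.9 to 18.7) of all nuclear sites. For other sites with the nearest one at 1 to 10 kb, the share was 20.5% (15.8 to 25.8). Sites between 300 and 400 bp had 41.9% (24.5 to 60.9), so the intermediate class did not stand alone in this. Of the 74 neighbours, 9 were of intermediate width, or 12.2% (5.71 to 21.8), an interval that holds the 20.7% of this class among all nuclear sites. At 10 to 100 kb, 16.9% (11.7 to 23.3) of the 177 nearest sites were 600 bp or wider, which is near the share in the list as a whole. Within 1 kb, 25 of 40 neighbours were narrower than 300 bp, or 62.5% (45.8 to 77.3), and 8 were 600 bp or wider, or 20% (9.05 to 35.6). For other sites with a neighbour within 1 kb these shares were 76.7% (73.0 to 80.1) and 5.95% (4.16 to 8.22). Of all nuclear sites, 25.6% were under 200 bp and 25.8% from 200 to under 300 bp.

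Scores of neighbours followed their width. For the 114 intermediate sites with another site within 10 kb, the median score was 9.42, and it was 8.23 for the nearest sites. The intermediate site scored higher than a neighbour below 300 bp in 44 of 56 cases, with a median difference of 1.56. It scored higher than a neighbour of 600 bp or more in 9 of 36 cases, with a median difference of -0.87. Against the 11 neighbours between 300 and 400 bp it scored higher in 9, with a median difference of 1.99. Against the 11 of intermediate width, where a pair can count from both sides, it scored higher in 6, with a median difference of 0.27. The differences thus did not fall steadily with the neighbour's width. Median scores of the neighbours were 7.50, 7.95, 8.74 and 10.4 from the narrowest of these classes to the broadest. These counts are descriptions, since score rises with width in the list and 1 neighbour is counted for 2 of the intermediate sites. The largest difference was -18.9, at chr14:15180720-15181282, an intermediate site that scored 10.6 at a distance of 3106 bp from the highest-scoring site of the list, which scored 29.5 and was 3373 bp wide.

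**Figure D4:**
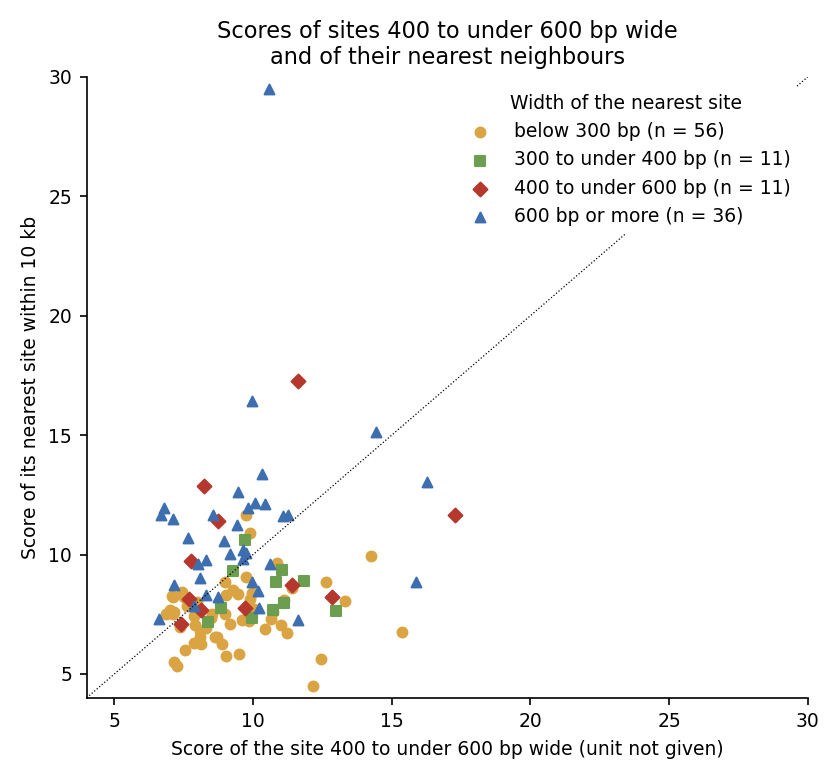
Score of each of the 114 intermediate sites with another site within 10 kb (horizontal axis, unit not given) against the score of that nearest site (vertical axis), marked by the neighbour's width, with a dotted line of equal scores. Neighbours below 300 bp lie mostly under the line and those of 600 bp or more mostly above it.

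Intermediate sites with and without a neighbour had overlapping scores. The median score was 9.34 (8.74 to 9.89) for the 40 with a site within 1 kb, 9.52 (8.49 to 9.96) for the 74 with the nearest site at 1 to 10 kb and 8.97 (8.83 to 9.11) for the 471 lone ones. The intervals of the medians overlap, and no difference was tested. Their median widths were 514, 512 and 500 bp.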

How the data were processed

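The deposited list has no header and gives chromosome, start, end, name and a score for each site. The score is deposited by the authors without meaning or unit. Per the submitters' processing notes, which give neither roles nor order, the tools were FastQC, MACS2, Bowtie 0.12.8 and SAMtools 1.3.1, and the build was mm9. The calling threshold, the control and the pooling of samples are not given in the sources used here; each can affect widths, gaps and scores. Width was taken as end minus start, and sites of at least 400 bp and under 600 bp were kept, with mitochondrial sites left out. Gaps run edge to edge to the nearest nuclear site. Shares have exact 95% Clopper-Pearson intervals, and medians have exact binomial order-statistic intervals. Sites of 1 list do not replicate one another and close sites depend on each other, so intervals are too narrow in crowded regions, and no test across sites was made. The class and the measures were chosen with earlier results of these data known. Named sites are the 10 highest and 5 lowest scores, the closest pair and chains of the class, the sites at each bound and the windows with most sites; other named sites were chosen after their values were seen. Alternatives were other width bounds, distances and score limits, merging, and leaving out crowded windows. The scripts were tested on simulated data. The software was Matplotlib 3.10.9, SciPy 1.17.1, NumPy 2.4.6 and pandas 2.3.3 under Python 3.11.15.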

Additional observations from a re-analysis of the deposited data

How the results depend on the processing

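No paired analysis was possible because the list holds no values per sample, and no replicate could be left out. Of 89 alternative values of 29 results, 52 stayed within the exact 95% interval of the main value (for the count of sites, within 1.5 times) and 37 moved. Merging of sites within 1 kb gave 662 sites of intermediate width and raised their share from 20.7% to 26.4%. Keeping sites at or above the median score raised it to 26.8%, lowered the share with a neighbour within 10 kb from 19.5% to 10.6% and that within 1 kb from 6.84% to 2.65%, while other sites went from 25.5% to 11.8%, and raised the share of broad neighbours at 1 to 10 kb from 37.8% to 60.0% of 30. These settings hold fewer sites. The score limit also keeps broad sites more often, as 68.4% of sites of 600 bp or more but 10.1% of those below 300 bp lie in the top 25% of scores. The share of broad sites among all kept sites was not computed, so the 60.0% has no background beside it. With a neighbour at 200 bp, 1 kb and 100 kb the share was 3.93%, 6.84% and 49.7%, and with another intermediate site at 1 kb and 100 kb it was 0.68% and 14.5%, against 2.39% at 10 kb. Other sites of 600 bp or more alone had 9.22% within 1 kb, and broad neighbours at 10 to 100 kb were 16.9%. Shares per chromosome moved in 24 of 63 values. Among sites at or above the median score they rose to 33.3% on chromosome 1, 28.8% on 2, 30.1% on 4, 25.9% on 8, 31.0% on 10 and 25.3% on 13. Bounds of 450 to below 550 bp, which hold fewer sites by construction, gave 14.1% on chromosome 1, 10.8% on 2, 7.69% on 3, 8.16% on 4, 10.0% on 5, 8.76% on 6, 7.81% on 7, 12.6% on 8, 8.97% on 10, 13.6% on 11, 15.0% on 12, 10.3% on 13, 10.7% on 14, 16.8% on 15, 15.5% on 17, 10.8% on 18, 7.46% on 19 and 1.33% on X. The alternatives for the share within 1 kb and for broad neighbours were chosen after seeing the data. Genes and motifs, planned for a genome of mm9, were not run. Depth is unknown, so the absence of a site from the list does not show absence of POU2F3.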

Other observations

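Of the 5 mitochondrial sites, which were left out of the class, 3 were of intermediate width, with 550, 466 and 510 bp and scores of 3.30, 4.13 and 2.24. These scores lie below the lowest of the 585 nuclear sites of that width, 5.07.

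Many close pairs of narrow sites together spanned as much as 1 site of intermediate width. Of 206 adjoining pairs of sites below 400 bp with a gap of up to 200 bp, 125 spanned from 400 to under 600 bp from the start of the first to the end of the second, or 60.7% (exact 95% interval 53.7 to 67.4). The median span was 535 bp, against a median width of 504 bp for the 585 listed sites, which the width rule holds from 400 to under 600 bp. Sites below 300 bp had a median width of 200 bp, so a pair of them with a short gap spans about this much by widths alone. Whether the spans show more than that was not tested. Another 28 pairs spanned less and 53 more. With gaps of up to 1 kb, 128 of 243 such pairs spanned from 400 to under 600 bp.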
